A study of Mus musculus with 6 samples.

Results

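The 35 genes described here encode the enzymes that build cholesterol and long-chain fatty acids, together with the proteins that switch them on, out of 24420 genes in the deposited table. They were listed by gene symbol from their known pathways, and comprised 18 enzymes of the sterol route, 6 regulators and transport proteins and 11 fatty acid enzymes. RNA was sequenced from regulatory T (Treg) cells of female C57BL/6 mice, labelled as coming from lymph nodes, enriched on CD4 beads and sorted for yellow fluorescent protein (YFP). The 3 OGT-sufficient mice were Foxp3YFP-Cre/wt Ogtwt/fl and the 3 OGT-deficient mice were Foxp3YFP-Cre/wt Ogtfl/fl. OGT is the enzyme that attaches O-GlcNAc, a single sugar, to serines and threonines of proteins inside the cell.

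Both groups therefore carried the same YFP-Cre allele in the *Foxp3* locus and at least 1 floxed *Ogt* allele, and no group lacked Cre. *Foxp3* and *Ogt* lie on the X chromosome, of which each female cell silences 1 copy at random, so YFP marked the Treg cells whose active X carried Cre. The labels do not say on which X the floxed allele of the OGT-sufficient mice lay, and they give no ages. As a check of the labels, counts of *Ogt* itself were 562, 632 and 957 in the OGT-sufficient mice against 327, 266 and 368 in the OGT-deficient mice. The genotypes did not overlap and lay in the labelled direction, apart by -1.21 on the log2 scale (SE 0.21, adjusted p = 0.191 by the quasi-likelihood test of edgeR).

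The libraries held between 3375454 and 4103552 counts each, and the 35 genes took from 0.108% to 0.142% of them. These totals include the ribosomal RNA entry *Rn45s*, so the shares also move with it. *Rn45s* took from 24.18% of counts in OGT-sufficient replicate 3 to 37.05% in OGT-deficient replicate 3, and without it 2488303 to 2686873 counts remained. OGT-sufficient replicate 3 stood apart, with a count for 18346 genes where the other libraries had one for 14412 to 15197. Markers of Treg and T cells (*Foxp3*, *Il2ra*, *Ikzf2*, *Ctla4*, *Cd3e* and *Cd4*) were all present and summed to between 1958 and 2891 CPM (counts scaled to a common library size with edgeR's TMM factors) per library. Markers of macrophages, a cell type the sort should remove, were present too, all 10 of them, and summed to between 1167 and 5389 CPM. Markers of adipocytes, which are rich in fatty acid enzymes, summed to between 1.04 and 2.88 CPM, and 0 of the 7 had enough counts to be tested. In such bulk RNA, fewer cells of a type and less RNA per cell cannot be told apart.

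Cholesterol is built from acetyl-CoA by way of mevalonate, isoprenoid units and squalene, which is closed into a ring and trimmed step by step. Fatty acids leave the same acetyl-CoA pool and are then desaturated and elongated. Both routes are controlled by the membrane-bound factors SREBP-1 and SREBP-2, which SCAP carries to the Golgi for cleavage when sterols are low and which INSIG proteins hold back when sterols are plentiful. T cells that divide or become effector cells are known to raise these routes, and prenyl lipids from the mevalonate pathway are known to be needed by Treg cells.

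The genes share promoter features as well as a pathway, and 5 promoters of sterol route enzymes are shown, a group whose levels varied together between samples. On average these enzymes and the regulators were both lowest in OGT-sufficient replicate 3. A link between the motifs and these levels was not tested. The sequences are from RefSeq on GRCm38.p6, run 5′ to 3′ on the strand of the gene and cover 250 bases before to 50 bases after its start. Capitals mark a CCAAT box (CCAAT, or ATTGG where it lies on the other strand), the site of the factor NF-Y, or the core of a sterol regulatory element (TCACNCCAC), the site of SREBP. The 5 were picked by hand and are not typical, as they include *Mvk*, *Hmgcs1* and *Nsdhl* with 5, 4 and 4 CCAAT boxes. The sterol route promoters searched but not shown had from 0 (*Acat2*) to 3 (*Hsd17b7*). The *Hmgcs1* window is chr13:119690101-119690400 on the plus strand, and that of *Mvk* is chr5:114444019-114444318 on the plus strand. Those of *Cyp51* (chr5:4104648-4104947) and *Msmo1* (chr8:64733529-64733828) are on the minus strand, and that of *Nsdhl* (chrX:72918271-72918570) is on the plus strand.
Hmgcs1: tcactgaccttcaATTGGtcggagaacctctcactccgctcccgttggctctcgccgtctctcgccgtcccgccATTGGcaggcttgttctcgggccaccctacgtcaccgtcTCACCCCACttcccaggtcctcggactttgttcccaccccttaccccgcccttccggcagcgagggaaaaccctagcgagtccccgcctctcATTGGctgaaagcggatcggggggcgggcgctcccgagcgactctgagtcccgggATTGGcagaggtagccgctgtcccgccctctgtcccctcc
Mvk: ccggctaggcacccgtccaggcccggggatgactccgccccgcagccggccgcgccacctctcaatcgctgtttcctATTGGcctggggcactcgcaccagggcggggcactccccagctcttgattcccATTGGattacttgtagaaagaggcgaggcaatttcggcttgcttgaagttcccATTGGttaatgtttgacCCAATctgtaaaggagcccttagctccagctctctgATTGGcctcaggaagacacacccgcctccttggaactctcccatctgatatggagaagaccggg
Cyp51: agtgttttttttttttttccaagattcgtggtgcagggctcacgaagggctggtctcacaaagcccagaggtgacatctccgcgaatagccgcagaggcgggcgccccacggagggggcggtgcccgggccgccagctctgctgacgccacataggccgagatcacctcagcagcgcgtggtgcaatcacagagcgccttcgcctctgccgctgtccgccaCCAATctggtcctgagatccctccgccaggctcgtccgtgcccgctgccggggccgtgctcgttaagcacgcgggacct
Msmo1: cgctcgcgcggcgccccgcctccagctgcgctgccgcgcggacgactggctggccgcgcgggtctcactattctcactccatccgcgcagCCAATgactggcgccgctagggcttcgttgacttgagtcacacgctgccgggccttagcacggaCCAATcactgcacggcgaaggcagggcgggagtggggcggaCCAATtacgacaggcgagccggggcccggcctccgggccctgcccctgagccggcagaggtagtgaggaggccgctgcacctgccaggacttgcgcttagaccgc
Nsdhl: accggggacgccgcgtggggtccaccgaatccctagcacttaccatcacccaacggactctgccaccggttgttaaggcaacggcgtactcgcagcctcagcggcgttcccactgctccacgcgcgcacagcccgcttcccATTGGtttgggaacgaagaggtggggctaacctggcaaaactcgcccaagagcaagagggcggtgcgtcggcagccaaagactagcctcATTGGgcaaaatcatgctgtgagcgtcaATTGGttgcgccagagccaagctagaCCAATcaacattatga

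In the *Hmgcs1* window the sterol regulatory core began 137 bases before the start and did not overlap any of the 4 CCAAT boxes. A window was found for 28 of the 35 genes, the ones without being *Sqle*, *Fdft1*, *Fdps*, *Stard4*, *Scd1*, *Scd2* and *Fads1*. Both strands were searched, in any window a gene had, and the motifs were compared with the same search over all 27025 genes with a window. That set was not limited to genes tested here, and the share among tested genes was not computed. A CCAAT box was found in 23 of 28 genes, which is 82.1%, against 41.1% of all genes. By role it was found in 14 of 15 sterol route enzymes, in 4 of 5 regulators and in 5 of 8 fatty acid enzymes. The sterol regulatory core was found in *Hmgcs1* alone among the 28, against 1.44% of all genes. The E-box CACGTG was found in 6 of 28 genes, which is 21.4%, against 8.09% of all genes. Each match describes letters in a window and says nothing of binding in these cells.

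Levels were compared between genes per kilobase of exonic length, and the order cut across the roles. *Elovl5*, which elongates polyunsaturated fatty acids, had the highest mean over the 6 samples at 42.2 CPM per kb, followed by *Acly*, which makes cytosolic acetyl-CoA from citrate, at 33.0 CPM per kb and the desaturase *Scd2* at 21.3 CPM per kb. *Srebf2*, which encodes SREBP-2, had 16.9 CPM per kb and *Ebp*, a sterol isomerase, had 15.3 CPM per kb, the highest of the sterol route. Below these came *Fasn* at 11.5, *Srebf1* at 11.35 and *Scd1* at 9.50 CPM per kb. At the other end stood *Tm7sf2* at 0.607, *Idi1* at 0.493 and *Fads2* at 0.394 CPM per kb. *Elovl5* lay above *Scd2* in every sample, while neighbours in this order mostly overlapped in their ranges over samples.

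**Figure D1:**
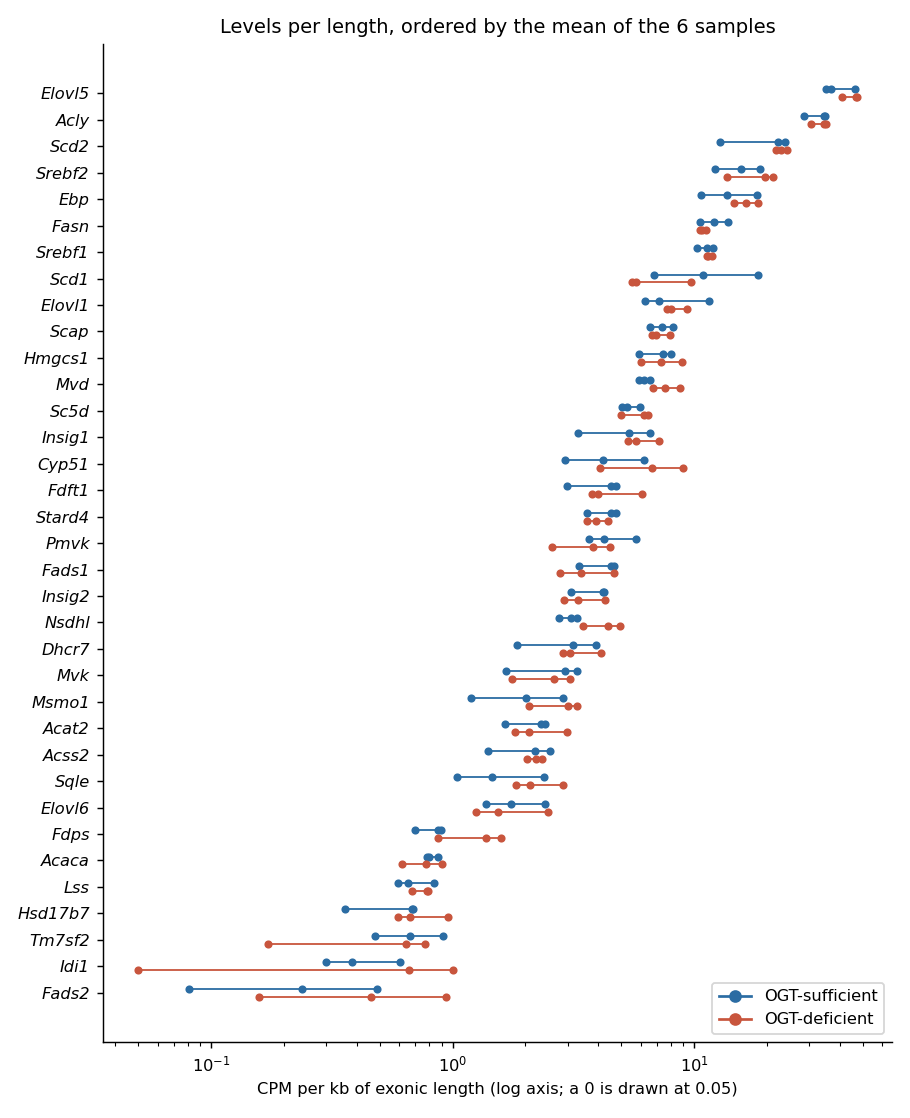
Levels of the 35 genes in CPM per kilobase of exonic length (log axis), ordered by the mean of the 6 samples, with 1 point per mouse and a line over the range of each group (blue, OGT-sufficient; red, OGT-deficient). The order runs from *Elovl5* at 42.2 to *Fads2* at 0.394 CPM per kb, and the ranges of the groups overlap for nearly every gene.

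The comparison of OGT-deficient with OGT-sufficient Treg cells asked which transcripts depend on OGT in these cells. Of the 35 genes, 33 passed the low-count filter and were tested, and 0 passed an adjusted p of 0.1, against 3 of all 10949 genes tested (0.0274%). The targeted gene *Ogt* was not among those 3 (adjusted p = 0.191 by edgeR's quasi-likelihood test). At an unadjusted p under 0.05, again 0 of 33 passed by edgeR's quasi-likelihood test, against 7.10% of all genes tested, of which 4.01% were lower and 3.09% higher in OGT-deficient cells. DESeq2 gave 1 at that unadjusted p, against 4.13% of all genes tested, and 0 after adjustment. No overlap between genotypes was seen for 2 genes, *Mvd* and *Nsdhl*, both higher in OGT-deficient cells, where 5.72% of all genes tested were higher without overlap. For 0 of the 33 were all OGT-deficient samples the lower ones, against 7.48% of all genes tested.

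The log2 fold changes lay between -0.78 for *Scd1* and 0.64 for *Fdps*. For 26 of the 33 genes the 95% interval of the fold change stayed within a 2-fold change in either direction, and for 10 it stayed within a 1.5-fold change. Of all 10949 genes tested, 8523 stayed within a 2-fold and 4669 within a 1.5-fold change. A missed threshold does not show that the levels were equal, and the median standard error of 0.23 on the log2 scale was above the 0.20 of all genes tested. The log2 fold change was above 0 for 22 of 33 genes with a median of 0.11, where 47.3% of all genes tested were above 0 and their median was -0.02. This tilt depended on the OGT-sufficient libraries. Without replicate 3 the count was 17 of 33 and the median was 0.001, and without replicate 1 the count was 23 of 33 and the median was 0.23.

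**Figure D2:**
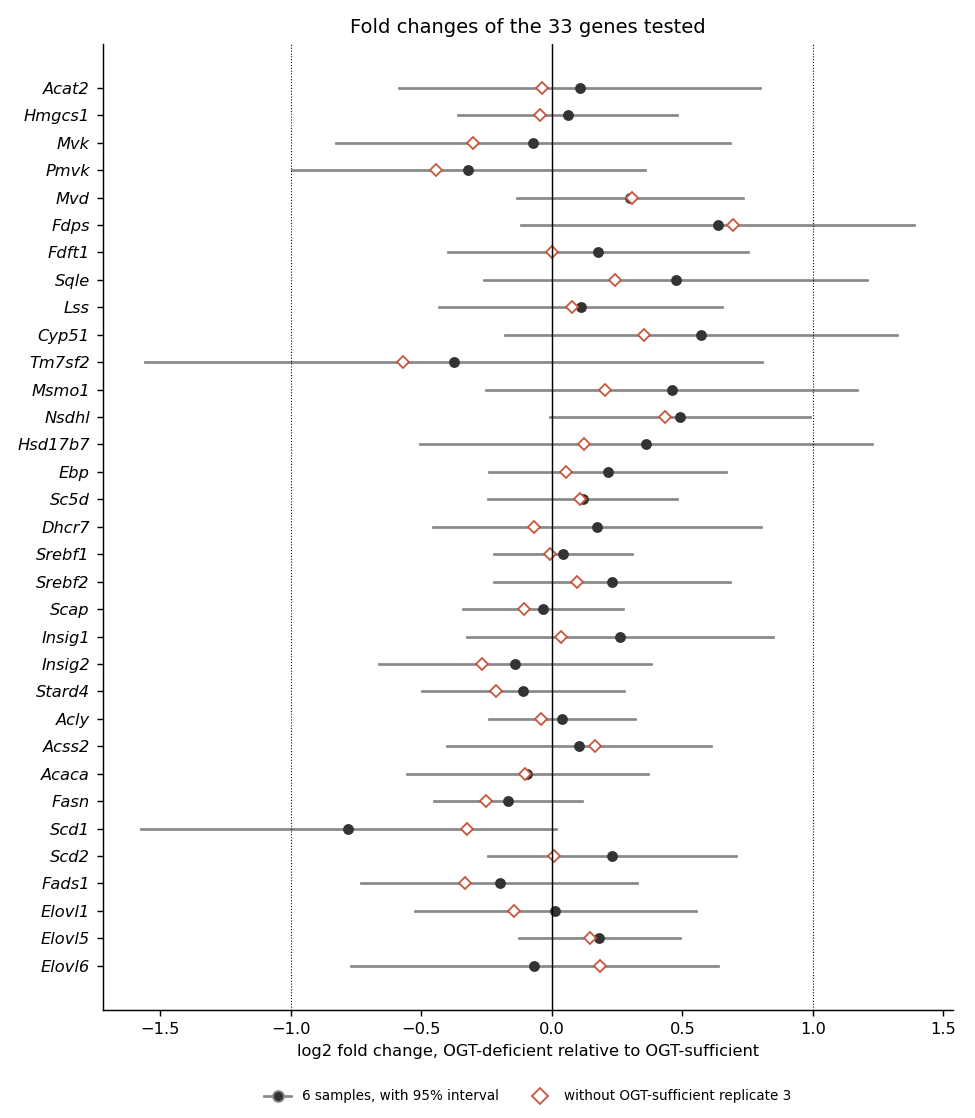
Log2 fold change of each of the 33 tested genes, OGT-deficient relative to OGT-sufficient, in pathway order (black points with 95% intervals, 6 samples; red diamonds, without OGT-sufficient replicate 3; dotted lines, a 2-fold change). Every interval includes 0, and the diamonds of most sterol route enzymes lie closer to 0 than the points.

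The mevalonate pathway opens with *Acat2*, which joins acetyl-CoA units, and *Hmgcs1*, which makes the precursor of mevalonate. *Hmgcs1* had 34.1, 36.8 and 27.3 CPM in OGT-sufficient replicates 1, 2 and 3, and 41.1, 33.5 and 27.7 CPM in OGT-deficient replicates 1, 2 and 3. Replicate 3 of each group was the lowest of its group and the ranges overlapped widely. On the log2 scale the difference was 0.06 (SE 0.185, adjusted p = 0.953 in edgeR), and the interval ran from 0.780-fold to 1.395-fold. The sign was not fixed, since it was -0.04 without OGT-sufficient replicate 3 and -0.09 without OGT-deficient replicate 1.

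Of the following enzymes, the kinases *Mvk* and *Pmvk* had log2 fold changes of -0.07 (SE 0.33) and -0.32 (SE 0.30), and *Acat2* one of 0.11 (SE 0.305). *Mvd*, the decarboxylase that yields isopentenyl diphosphate, had 12.2, 11.0 and 11.5 CPM in OGT-sufficient and 12.6, 14.1 and 16.2 CPM in OGT-deficient samples. These groups did not overlap, but the log2 fold change of 0.30 (SE 0.19) had an adjusted p of 0.773. *Fdps*, which makes farnesyl diphosphate for sterols and prenylated proteins, had 11, 14 and 14 counts in OGT-sufficient and 26, 23 and 14 counts in OGT-deficient samples. Its log2 fold change of 0.64 (SE 0.33, adjusted p = 0.750) was the highest of the 33, and OGT-deficient replicate 3 lay within the range of the OGT-sufficient group. *Idi1*, the isomerase of isopentenyl diphosphate, had 8, 5 and 4 counts against 9, 14 and 0 counts and was not tested. A few of these genes share sequence with other genes, which makes their counts uncertain. Of 50-base stretches of their transcripts, 39.1% in *Acat2*, 26.2% in *Fdps*, 25.3% in *Idi1* and 11.6% in *Hmgcs1* also occur in another gene.

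The squalene and sterol enzymes gave the most one-sided values, with 10 of 11 log2 fold changes above 0 and a median of 0.215. With 1 sample left out the median ran from 0.109 (9 of 11 above 0, without OGT-sufficient replicate 3) to 0.472 (10 of 11, without OGT-sufficient replicate 1). *Sqle*, the squalene epoxidase and a rate-setting step, had 13.3, 8.05 and 5.77 CPM in OGT-sufficient samples, and 15.9, 11.6 and 10.2 CPM in OGT-deficient samples. OGT-sufficient replicate 1 lay above 2 of the OGT-deficient samples, so the groups overlapped. This gave a log2 fold change of 0.475 (SE 0.32, adjusted p = 0.784 in edgeR) with an interval from 0.836-fold to 2.31-fold, and it was 0.24 without OGT-sufficient replicate 3 and 0.90 (unadjusted p = 0.0205, adjusted p = 0.661) without OGT-sufficient replicate 1.

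*Nsdhl*, a sterol dehydrogenase encoded on the X chromosome, had the lowest p of the group. It had 9.31, 8.85 and 7.87 CPM in OGT-sufficient and 12.6, 14.1 and 9.92 CPM in OGT-deficient samples. Every OGT-deficient sample lay above every OGT-sufficient sample, and the log2 fold change was 0.49 (SE 0.22, unadjusted p = 0.0524, adjusted p = 0.699). Without OGT-sufficient replicate 3 it was 0.435. No other gene of the sterol ring steps was free of overlap between the groups.

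*Cyp51*, the lanosterol demethylase, had 27.4, 18.5 and 12.85 CPM in OGT-sufficient and 39.8, 29.5 and 18.0 CPM in OGT-deficient samples. Its log2 fold change was 0.57 (SE 0.33, adjusted p = 0.755), 0.35 without OGT-sufficient replicate 3, and from 0.28 to 0.93 over the fits with 1 sample left out. *Msmo1*, the methylsterol oxidase, had 17.6, 12.3 and 7.34 CPM in OGT-sufficient and 20.0, 18.4 and 12.8 CPM in OGT-deficient samples, with a log2 fold change of 0.46 (SE 0.31). In both genes replicate 3 was the lowest of its group, and the highest OGT-sufficient sample lay above the lowest OGT-deficient sample.

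The remaining steps had smaller or less certain differences. Log2 fold changes were 0.18 (SE 0.25) for *Fdft1*, the squalene synthase, 0.11 (SE 0.24) for *Lss*, which closes the ring, and 0.36 (SE 0.38) for *Hsd17b7*, a sterol ketoreductase. They were 0.215 (SE 0.20) for *Ebp*, 0.12 (SE 0.16) for the desaturase *Sc5d*, and 0.17 (SE 0.28) for *Dhcr7*, which reduces the last precursor of cholesterol. *Tm7sf2*, a sterol reductase, was the only one of the 11 below 0, at -0.375 (SE 0.52), with 11, 15 and 8 counts against 11, 3 and 13 counts. In *Fdft1*, 26.5% of 50-base stretches also occur in another gene, and its exons overlap those of *Ctsb*.

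**Figure D3:**
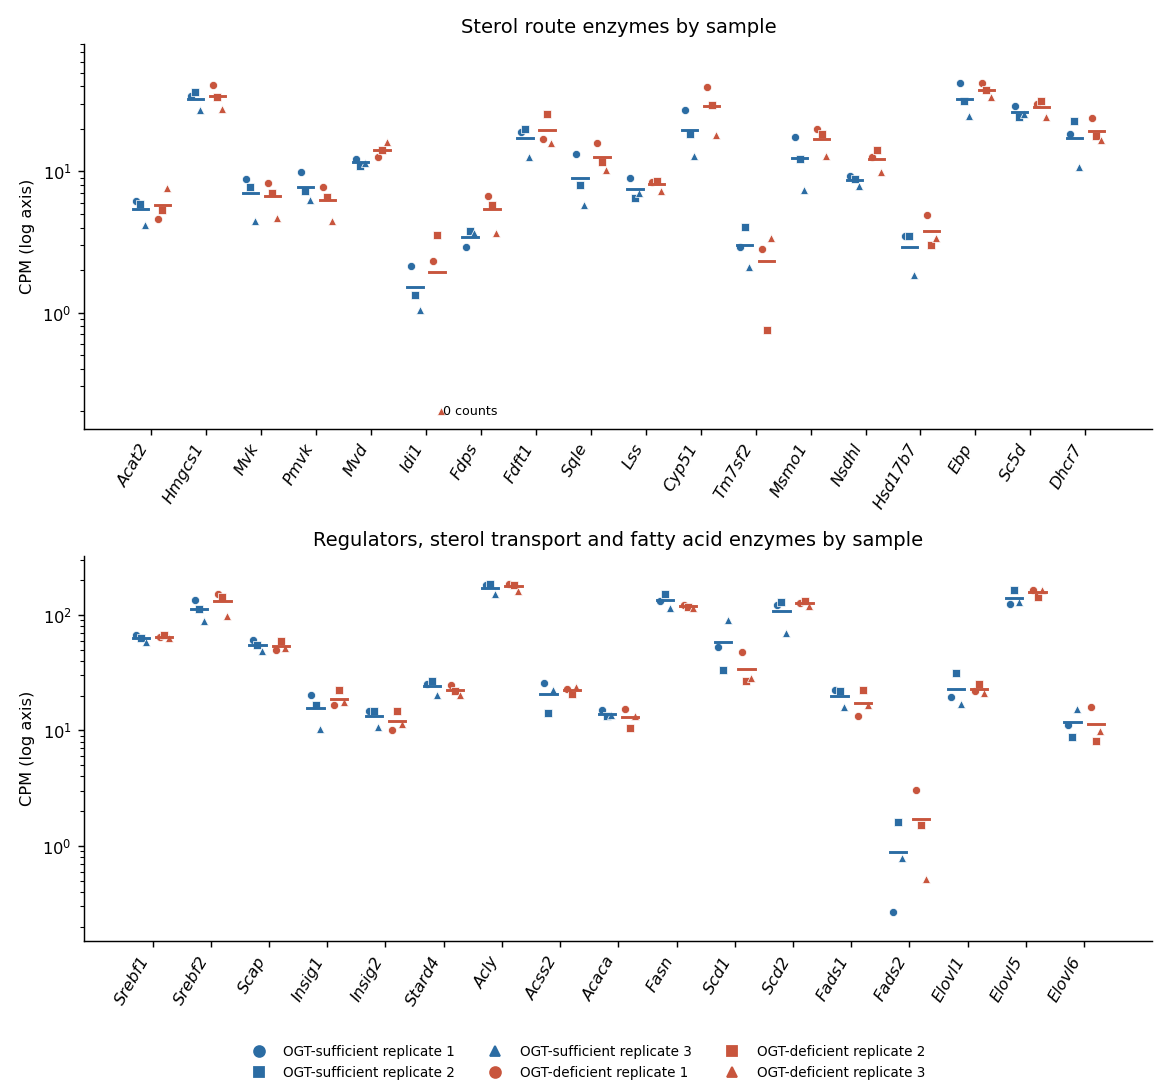
CPM (log axis) of the 18 sterol route enzymes (top) and of the 17 regulators, transport protein and fatty acid enzymes (bottom) in each mouse, with colour for the genotype, marker shape for the replicate and a bar at each group mean. Replicate 3 of the OGT-sufficient group (blue triangle) is the lowest point of many sterol route enzymes, and the same sample has the highest *Scd1*.

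Of the regulators and transport proteins, 0 of 6 passed the test. Intervals stayed within a 1.5-fold change for 3 of 6, against 4669 of all 10949 genes tested. *Srebf1*, which encodes SREBP-1, had 67.6, 63.6 and 57.7 CPM in OGT-sufficient and 64.2, 67.0 and 63.4 CPM in OGT-deficient samples. The OGT-deficient samples lay inside the range of the other group, and the log2 fold change of 0.04 (SE 0.12, adjusted p = 0.946 in edgeR) had the narrowest interval of the 33, from 0.859-fold to 1.24-fold. *Srebf2* had 135, 112 and 87.8 CPM in OGT-sufficient and 152, 142 and 98.65 CPM in OGT-deficient samples. Replicate 3 was again the lowest of each group, the groups overlapped, and the log2 fold change was 0.23 (SE 0.20, adjusted p = 0.844), or from 0.095 to 0.43 with 1 sample left out.

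*Insig1*, which retains SCAP in the endoplasmic reticulum and is itself a target of SREBP, had 20.2, 16.6 and 10.2 CPM in OGT-sufficient and 16.4, 22.2 and 17.75 CPM in OGT-deficient samples. OGT-sufficient replicate 3 was the lowest and the groups overlapped. The difference of 0.26 on the log2 scale (SE 0.26, adjusted p = 0.864) was 0.04 without that sample and 0.52 without OGT-sufficient replicate 1. Its paralog *Insig2* had a log2 fold change of -0.14 (SE 0.23). *Scap* had one of -0.035 (SE 0.135), and *Stard4*, which carries cholesterol between membranes, one of -0.11 (SE 0.17). Of these 6 genes, 3 were above 0, with a median of 0.004, or -0.034 when scaled to library size alone.

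Among the fatty acid enzymes, 5 of the 10 tested were above 0 and the median log2 fold change was -0.03. *Fasn*, the fatty acid synthase, had 132, 152 and 116 CPM in OGT-sufficient and 122, 118 and 115 CPM in OGT-deficient samples. The OGT-deficient samples lay close together at the lower end of the other group's range. Its log2 fold change was -0.17 (SE 0.125, adjusted p = 0.800 in edgeR) with an interval from 0.731-fold to 1.08-fold.

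*Acaca*, which makes malonyl-CoA and sets the pace of fatty acid synthesis, had 14.9, 13.4 and 13.6 CPM in OGT-sufficient and 15.4, 10.6 and 13.3 CPM in OGT-deficient samples. OGT-deficient replicate 2 was the lowest and the other 5 samples lay close together, and the log2 fold change of -0.09 (SE 0.20, adjusted p = 0.932) became 0.07 without it. Of 50-base stretches of *Acaca*, 30.4% also occur in another gene. *Acly* had a log2 fold change of 0.04 (SE 0.12), with an interval from 0.846-fold to 1.245-fold. *Acss2*, which makes acetyl-CoA from acetate, had one of 0.10 (SE 0.22).

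*Scd1*, a desaturase that makes monounsaturated fatty acids, had the largest difference in either direction. It had 53.2, 33.3 and 89.7 CPM in OGT-sufficient replicates 1, 2 and 3, and 47.5, 27.0 and 28.2 CPM in OGT-deficient replicates 1, 2 and 3. OGT-sufficient replicate 3 was the highest of all samples, while OGT-sufficient replicate 2 lay below OGT-deficient replicate 1. Its log2 fold change was -0.78 (SE 0.35, unadjusted p = 0.0537, adjusted p = 0.703 in edgeR), and it was negative in all fits with 1 sample left out. It was -0.33 (unadjusted p = 0.285) without OGT-sufficient replicate 3, -1.06 (unadjusted p = 0.00895, adjusted p = 0.563) without OGT-sufficient replicate 2 and -1.09 (unadjusted p = 0.0129, adjusted p = 0.618) without OGT-deficient replicate 1.

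Its paralog *Scd2* went the other way in that library. *Scd2* had 122, 130 and 69.7 CPM in OGT-sufficient and 126, 132 and 119 CPM in OGT-deficient samples, so OGT-sufficient replicate 3 was the lowest and the remaining samples lay within a narrow range. Between genotypes the log2 fold change was 0.23 (SE 0.21, adjusted p = 0.851), 0.007 without that sample and 0.395 without OGT-sufficient replicate 2. *Scd1* therefore took 56.25% of the summed counts of the 2 genes in OGT-sufficient replicate 3 (95% Wilson interval 52.3 to 60.1, for counting error only). In the other OGT-sufficient samples it took 30.4% (27.0 to 34.1) and 20.4% (17.35 to 23.7), and in the OGT-deficient samples between 16.9% and 27.45%. Few stretches are common to both genes, as 4.6% of 50-base stretches of *Scd1* and 4.0% of those of *Scd2* occur in any other gene.

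The other desaturases act on polyunsaturated fatty acids. *Fads1* had a log2 fold change of -0.20 (SE 0.23), and *Fads2* had 1, 6 and 3 counts against 12, 6 and 2 counts and was not tested. The elongases *Elovl1*, *Elovl5* and *Elovl6* had log2 fold changes of 0.01 (SE 0.24), 0.18 (SE 0.14) and -0.07 (SE 0.31). For *Elovl5*, the most abundant gene per length, the interval ran from 0.917-fold to 1.40-fold.

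The sterol route enzymes varied together between mice of the same genotype. Expressed as the mean deviation of their log2 levels from each gene's own mean, the 17 tested enzymes stood at 0.14, -0.01 and -0.42 in OGT-sufficient replicates 1, 2 and 3, and at 0.285, 0.09 and -0.08 in OGT-deficient replicates 1, 2 and 3. The group means of this score were -0.10 ± 0.29 (SD, n = 3) and 0.10 ± 0.18 (SD, n = 3), so the genotypes differed by less than the spread of the OGT-sufficient mice. OGT-sufficient replicate 3 was the lowest sample for 11 of the 17, which is 64.7%, against 23.8% of all genes tested. OGT-deficient replicate 1 was the highest for 8 of the 17, which is 47.1%, against 15.2% of all genes tested. Scaled to library size alone, the counts were 8 and 11 of 17, against 11.4% and 19.8% of all genes tested.

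**Figure D4:**
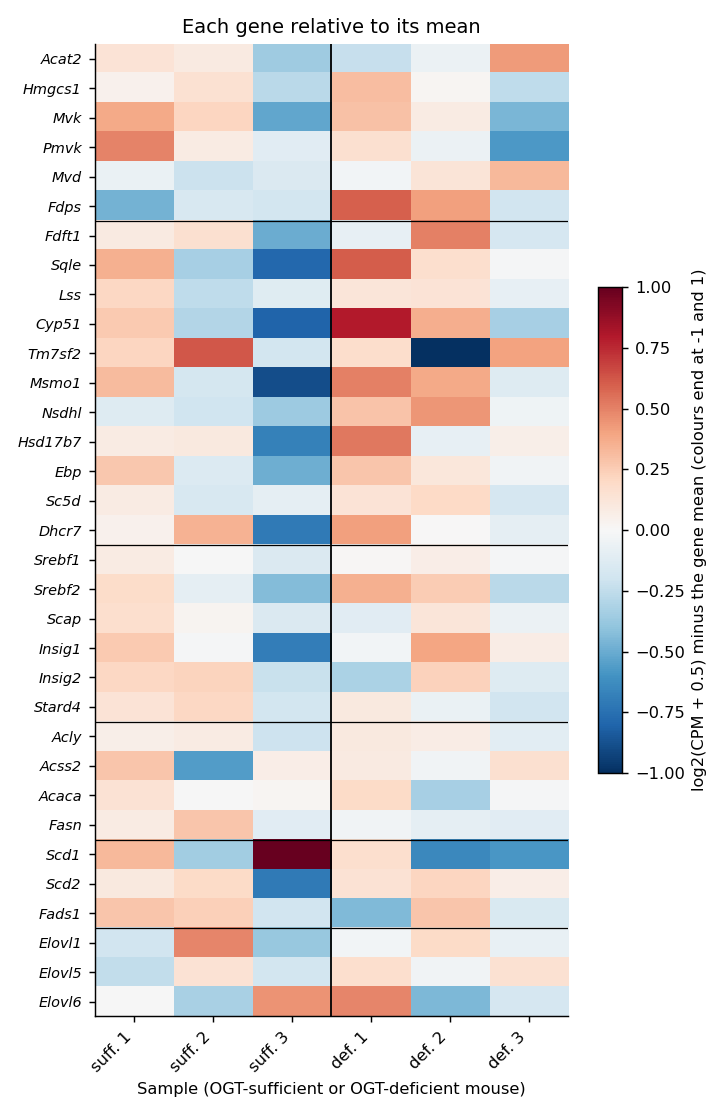
Log2 level of each of the 33 tested genes in each mouse, relative to the mean of that gene over the 6 samples (red above, blue below; colours end at -1 and 1), in pathway order with lines between roles and between genotypes. OGT-sufficient replicate 3 is blue through most of the sterol route and red at *Scd1*, and OGT-deficient replicate 1 is mostly red.

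The 6 regulators and transport proteins were lowest in the same library, with a mean deviation of -0.30 in OGT-sufficient replicate 3 and between -0.095 and 0.17 in the other samples. The mean over the 10 fatty acid enzymes stayed between -0.08 and 0.08, but single enzymes cancelled in it, as *Scd1* stood at 1.07 and *Scd2* at -0.70 in OGT-sufficient replicate 3. Several cell type markers moved between the same libraries, and their part in the sterol pattern was not tested. Treg and T cell markers summed to 1958 CPM in OGT-sufficient replicate 3 and to between 2573 and 2891 CPM elsewhere. Erythroid markers summed to 727 CPM there and to between 176 and 390 CPM elsewhere, and B cell markers to 239.6 CPM there and to between 71.3 and 124 CPM elsewhere. Macrophage markers summed to 1740 CPM in OGT-sufficient replicate 3, where the sterol enzymes were lowest, and to 1167 CPM in OGT-deficient replicate 1, where they were highest. Genes of proliferating cells summed to between 1175 and 1761 CPM. Of these, *Mki67* had 1118 CPM in OGT-sufficient replicate 3 and 544 CPM in OGT-deficient replicate 1, while *Ccna2* and *Pcna* were lowest in OGT-sufficient replicate 3.

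**Figure D5:**
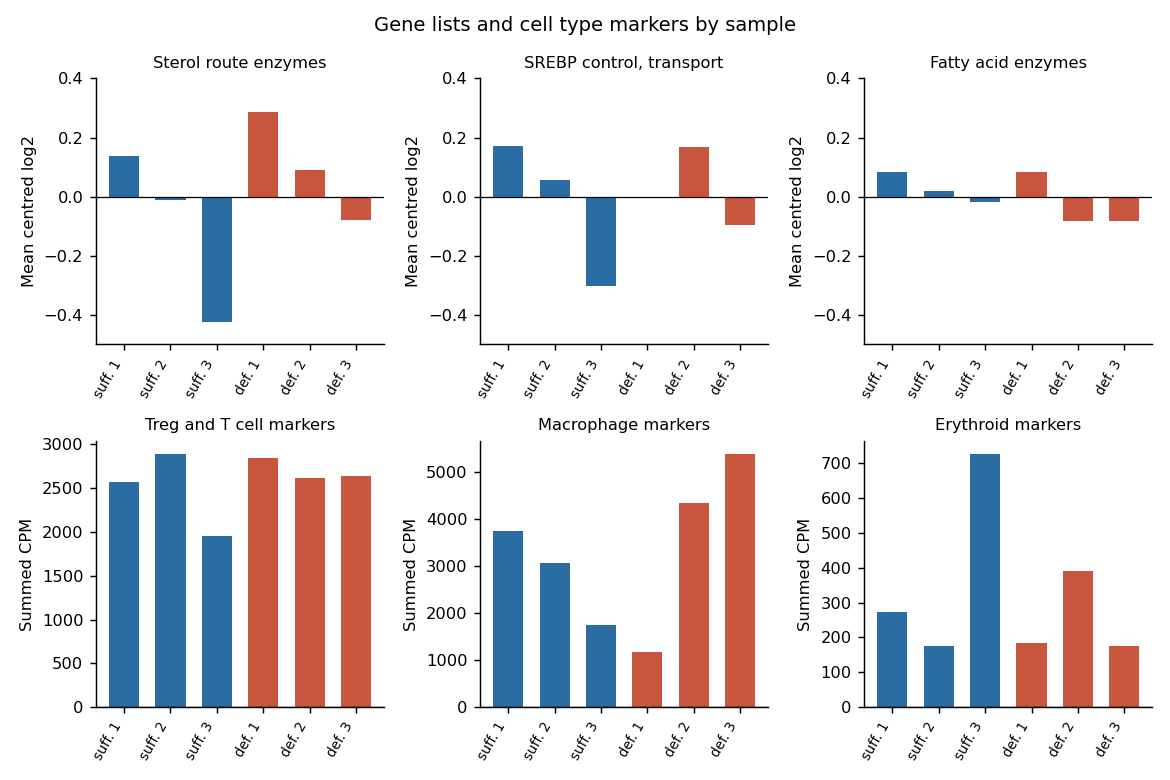
Top, mean deviation of log2 level over the genes of each role (17 sterol route enzymes, 6 regulators and transport proteins, 10 fatty acid enzymes) by mouse. Bottom, summed CPM of Treg and T cell, macrophage and erythroid markers in the same mice (blue, OGT-sufficient; red, OGT-deficient), where OGT-sufficient replicate 3 has the lowest T cell sum of 1958 CPM and the highest erythroid sum of 727 CPM.

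Genes next to these routes gave few values outside the spread between replicates. Of 15 tested genes around the sterol route, such as those that attach prenyl groups or process SREBP, 0 had an unadjusted p under 0.05, and their median log2 fold change was -0.008. Of 13 genes of sterol sensing by LXR, efflux, storage and trafficking, 1 did, against 7.10% of all genes tested. This was *Npc2*, which binds cholesterol in the lysosome, with 456, 405 and 341 counts in OGT-sufficient and 494, 670 and 537 counts in OGT-deficient samples. Its groups did not overlap, where 5.72% of all genes tested were higher in OGT-deficient cells without overlap. Its log2 fold change was 0.45 (SE 0.15, unadjusted p = 0.0174, adjusted p = 0.565 by edgeR's quasi-likelihood test).

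Of 12 tested genes of fatty acid supply, activation and elongation, 1 had an unadjusted p under 0.05, against 7.10% of all genes tested. *Mid1ip1*, which encodes a protein that activates acetyl-CoA carboxylase, had 32, 38 and 30 counts in OGT-sufficient and 18, 20 and 22 counts in OGT-deficient samples. All OGT-deficient samples were below all OGT-sufficient samples, where 7.48% of all genes tested were lower without overlap. The log2 fold change was -0.78 (SE 0.25, unadjusted p = 0.0113, adjusted p = 0.551 by edgeR's quasi-likelihood test). Of 15 tested genes of fatty acid oxidation and uptake, 0 had an unadjusted p under 0.05, and in none of the 4 lists did a gene pass an adjusted p of 0.1.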

How the data were processed

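RNA of sorted Treg cells was sequenced as paired-end reads from 6 mice, 3 per genotype. The submitters' processing notes name Trimmomatic 0.33, FastQC, Bowtie2 2.2.4.0, featureCounts, edgeR and the build mm10, whereas the methods of the paper name Cuffquant for quantification. The annotation, the strand setting and the treatment of reads shared between genes are not given in the sources used here, so genes that overlap or share sequence are uncertain. The authors deposited whole-number counts per gene symbol and mouse, without normalization. Their p-values, adjusted p-values, fold changes, means and ranges in the same table were not used.

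Counts were tested in R 4.3.3 with edgeR 4.0.16 (quasi-likelihood test, TMM scaling, filterByExpr at a minimum count of 10, no block), with Benjamini-Hochberg adjustment over 10949 genes, and summarised in Python 3.11.15. The standard error was derived from the log2 fold change and the F statistic (the size of the former divided by the root of the latter), and the 95% interval uses the degrees of freedom of the fit. Log2 levels by sample had 0.5 added to the CPM. Total counts were 3375454 to 4103552, and after TMM scaling 3 counts were worth 0.756 to 0.805 CPM. The p-values set the difference between genotypes against the spread between the 3 mice of each, which edgeR estimates with information shared across genes. The smallest two-sided p of an exact permutation test at this size is 0.1. Replicates of a genotype differed by more than counting noise (chi-square of 3.31 to 22.0 per degree of freedom).

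The genes, the lists beside them and the marker lists were chosen with earlier results of these data known. Values in every sample are given for genes at an unadjusted p under 0.05, of which there were 0, and for *Hmgcs1*, *Sqle*, *Fasn*, *Acaca*, *Scd1*, *Scd2*, *Insig1*, *Srebf1* and *Srebf2* whatever their values. *Idi1*, *Fads2*, *Tm7sf2*, *Mvd*, *Fdps*, *Nsdhl*, *Cyp51* and *Msmo1* were given in this way after their values were seen. Neighbouring lists name genes at an unadjusted p under 0.05. Lengths and overlaps are from GENCODE M21 and promoters from RefSeq on GRCm38.p6, matched by symbol. Alternatives were DESeq2 1.42.0, edgeR's exact test, other scalings and filters, a replicate block and leaving out each sample. Library size without *Rn45s* was added after seeing the data. Over all genes tested, the deviations of same-numbered samples from their group means had correlations of -0.280, 0.0071 and -0.118. With 3 mice per group this cannot decide whether the replicate numbers pair mice. The mean deviation of the sterol route enzymes fell from replicate 1 to replicate 3 in both groups. Single values of some genes in the neighbouring lists are not reported here.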

Additional observations from a re-analysis of the deposited data

How the results depend on the processing

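Of the genes described, 0 passed an adjusted p of 0.1 in any of the 14 alternatives, where the lowest adjusted p was 0.161 (*Scd1*, no filter), and 20 of the 33 tested kept their sign in all of them. At an unadjusted p under 0.05 edgeR's quasi-likelihood test gave 0 genes, and percentages here are the shares of all genes tested. DESeq2 gave 1 (*Scd1*, against 4.13%), the exact test 1 (*Scd1*, against 6.38%) and DESeq2's size factors 1 (*Nsdhl*, against 7.09%). No filter gave 2 (*Cyp51* and *Scd1*, against 6.13%), and a minimum of 10 counts in every sample gave 1 (*Nsdhl*, against 7.23%). A block on the replicate numbers, not stated in the labels to pair mice, gave 1 (*Cyp51*, unadjusted p = 0.00981). In that fit 6.2% of all genes tested had an unadjusted p under 0.05, and 0 passed an adjusted p of 0.1. Leaving out each sample in turn gave from 0 to 4 genes, with 4 of 33 without OGT-sufficient replicate 1 (*Sqle*, *Cyp51*, *Msmo1* and *Ebp*; 7.37% of all genes tested), 3 without OGT-deficient replicate 3 (*Fdps*, *Cyp51* and *Nsdhl*; 6.64%), 2 without OGT-sufficient replicate 2 (*Scd1* and *Elovl5*; 7.91%) and 1 without OGT-deficient replicate 1 (*Scd1*; 7.18%). Genes whose groups did not overlap then numbered 3 to 7 of 33 in place of 2. Smaller groups overlap less often whatever the gene, and the share over all genes was not computed at that size. This rise is therefore not read as a result.

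Over all genes, 777 had an unadjusted p under 0.05 as reported, 452 with DESeq2, 1208 without a filter and from 462 to 889 with 1 sample left out. Past an adjusted p of 0.1 these were 3, 38, 131 and from 0 to 9, and 80 with the exact test. *Ogt*, at an adjusted p of 0.191 as reported, had 0.000561 with DESeq2, 0.000458 with the exact test and 1.62e-05 without a filter. It did not pass in the remaining alternatives. The median log2 fold change of the genes described ran from 0.001 to 0.23 with 1 sample left out. The sign of the log2 fold change differed in at least 1 alternative for 13 of the 33 genes (*Acat2*, *Mvk*, *Fdft1*, *Tm7sf2*, *Dhcr7*, *Scap*, *Acly*, *Acss2*, *Elovl1*, *Elovl6* and the following 3), among them *Hmgcs1* (-0.094 to 0.223 with 1 sample left out, the lowest without OGT-deficient replicate 1, and -0.044 without OGT-sufficient replicate 3), *Srebf1* (-0.006 to 0.136, the lowest without OGT-sufficient replicate 3) and *Acaca* (-0.226 to 0.071, the highest without OGT-deficient replicate 2). Scaling moved the median of all genes tested from -0.02 to -0.06 at most. The cause of these changes was not tested. Genes with few counts, such as *Tm7sf2* and *Hsd17b7*, have intervals too wide to show a 1.5-fold change.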

Other observations

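*Ppara*, a nuclear receptor of fatty acid oxidation, had 227 counts in OGT-deficient replicate 2 and at most 2 counts in each of the other samples, and it was not tested because a single library held nearly all of its counts. It was picked out after its values were seen.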
